A study of Mus musculus with 12 samples.

Results

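Transcripts of 8 clade B serpins of the epidermis were followed across 12 RNA sequencing libraries from mouse skin. The 8 genes are Serpinb2, Serpinb3a, Serpinb3b, Serpinb5, Serpinb6a, Serpinb8, Serpinb9 and Serpinb12. They were chosen by name, and all 8 were found among the 25965 gene rows of every library. The series concerns the epidermal growth factor receptor EGFR in differentiation of the hair shaft, and it set libraries labelled Egfr knockout against controls in sorted cells of 3 skin compartments. Each of the 6 groups holds 2 libraries. Controls of all 3 compartments carry the genotype EGFR_fl_fl. Knockout libraries of the IFE and ORS compartments carry EGFR_delta_ep, and those of the HFSC compartment carry EGFR_delta_LGR5. The labels spell out neither deletion, and age, sex, strain, time and treatment are not given there. ORS is the outer root sheath, and HFSC are stem cells of the hair follicle. IFE is kept as an abbreviation because the labels pair it with the inner root sheath, while it is widely used for the interfollicular epidermis. Libraries are named by the code that opens their titles, such as IFE control E341. IFE and ORS libraries share the codes E341, E358 and E359, while the HFSC codes occur in HFSC alone. Whether both libraries of a group stem from different mice is not labelled. The ORS controls differ in sex by their reads, given below, so those 2 stem from different mice. Where libraries of a group do not, the p-values cover only library-to-library spread, which may be technical.

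Serpins are protease inhibitors that present a reactive loop as bait. When the protease cuts the loop, the serpin changes shape and holds the enzyme in a covalent complex. Clade B members lack a classical cleaved signal peptide, so most act in the cytosol or nucleus, where they are thought to guard cells against their own or incoming proteases. Several are abundant in stratified epithelia, and many sit in gene clusters that arose by duplication.

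In the deposited coordinates, which match the mm10 build, 6 of the members lie on chromosome 1. In order these are Serpinb5 (chr1:106861173-106883348, plus strand), Serpinb12 (chr1:106934449-106957080, plus), Serpinb3a (chr1:107045587-107052337, minus), Serpinb3b (chr1:107153940-107278361, minus), Serpinb2 (chr1:107511423-107535478, plus) and Serpinb8 (chr1:107590006-107608909, plus). The other 2 lie on chromosome 13, namely Serpinb9 (chr13:33003250-33017957, plus) and Serpinb6a (chr13:33917918-34002794, minus). The deposited Serpinb3b row spans 124.4 kb and overlaps the Serpinb3c row on the same strand. Serpinb6a shares exon bases with 3 genes of the opposite strand, Nqo2 (14.1% of Serpinb6a exon bases), 1110046J04Rik (10.8%) and Ripk1 (4.5%). Serpinb2 shares 12.4% of its exon bases with Serpinb10 on the same strand. Whether counting used strand is not given in the sources used here, so reads in these overlaps may belong to either gene.

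Serpinb3a and Serpinb3b are near-identical copies, and their separate counts depend on the bases that differ. Their coding sequences in the GENCODE vM21 annotation are 1161 bases each and 92.7% identical, with 85 differing bases. Their longest identical run is 76 bases. Of all 50-base stretches of the Serpinb3a transcript, 5.3% occur unchanged in the Serpinb3b transcript, against 0.0% of 150-base stretches, the read length of this study. The first 60 coding bases hold 17 of the differences and are the stretch where the copies differ most. They are shown here because a read covering them can be assigned to 1 copy. Capitals mark the bases that differ between the copies, and both stretches are coding exon on the minus strand of mm10 (chr1:107051711-107051770 for Serpinb3a and chr1:107159718-107159777 for Serpinb3b).
Serpinb3a: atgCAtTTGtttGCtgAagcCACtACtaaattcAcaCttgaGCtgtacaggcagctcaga
Serpinb3b: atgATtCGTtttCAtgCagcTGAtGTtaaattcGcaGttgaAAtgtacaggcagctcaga
Coding bases 766 to 825, in the last coding exon, hold 7 differences (chr1:107046355-107046414 and chr1:107154708-107154767, minus strand). They are shown as the stretch of that exon where the copies differ most.
Serpinb3a: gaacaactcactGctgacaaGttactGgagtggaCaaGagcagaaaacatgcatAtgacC
Serpinb3b: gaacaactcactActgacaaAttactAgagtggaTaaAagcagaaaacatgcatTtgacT
How reads that match both copies were assigned is not given in the sources used here, so the separate values of the copies are uncertain.

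**Figure D1:**
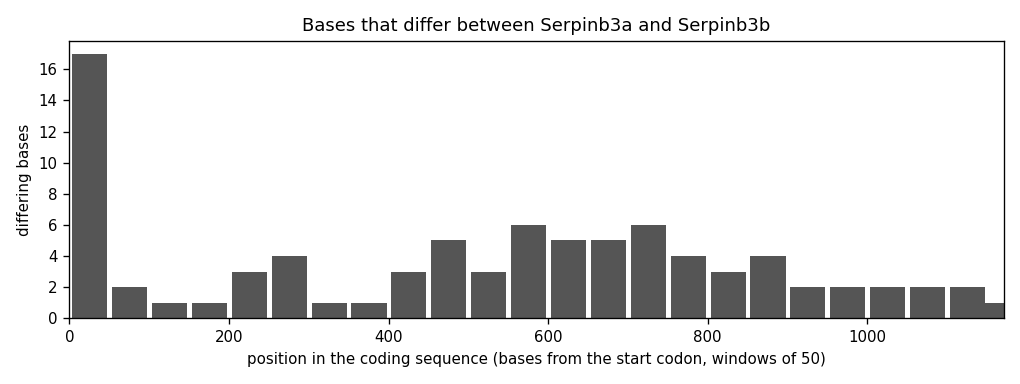
Number of bases that differ between the Serpinb3a and Serpinb3b coding sequences (vertical axis) in consecutive windows of 50 bases from the start codon (horizontal axis, bases; the last window holds 11 bases). The first window holds 17 differing bases, and the other windows hold 1 to 6.

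Depth, as reads in genes, was 24.7 to 27.7 M in ORS libraries, against 11.4 to 13.2 M in IFE and 11.5 to 16.8 M in HFSC. Levels below are CPM, scaled by TMM over the 12 libraries to 1e6 gene reads each, and 3 reads correspond to 0.106 to 0.269 CPM in a library. The libraries were checked by the targeted gene first. Egfr was at 116 and 156 CPM in IFE controls against 0 and 0.318 CPM in IFE knockouts, and at 246 and 274 CPM in ORS controls against 3.68 and 54.6 CPM in ORS knockouts. HFSC controls held 394 and 432 CPM and the libraries labelled HFSC knockout 332 and 335 CPM, so most Egfr transcript was still present there. Krt1 and Krt10, keratins of suprabasal epidermis, averaged 1205 and 1033 CPM in IFE controls and at most 67.1 CPM in the groups of the other compartments. They belong to a list of 12 differentiation markers that did not all go this way. In HFSC against IFE, 6 of the 12 were called lower and 3 higher (Ivl, Sbsn and Klk7, limma adjusted p under 0.05). The summed level of the 12 was 6398 to 9144 CPM in IFE, 2329.7 to 2649 CPM in HFSC and 211 to 513 CPM in ORS. Most of the sum in the HFSC controls was Sbsn alone, whose mean there is given below. The summed level of 8 inner root sheath markers was 890.1 to 1057 CPM in the IFE libraries, above the HFSC libraries at 513 to 670.4 CPM and the ORS libraries at 380.2 to 559.6 CPM. Most of it was Gata3, a transcription factor, at a mean of 889 CPM in IFE controls. The keratins Krt25 and Krt28 had 0 reads in all 4 IFE libraries, while Tchh, which encodes trichohyalin, had reads in each of them. No library held a read of Ptprc, the CD45 gene of leukocytes. By reads of Xist, transcribed from the inactive X chromosome, and the Y-linked Ddx3y, the IFE controls were male and the IFE knockouts female, the HFSC controls female and the HFSC knockouts male, and ORS control E341 male with the other 3 ORS libraries female. In IFE and HFSC, sex and genotype cannot be told apart.

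Serpinb5 was the most abundant of the 8 in every library, while Serpinb3a, Serpinb3b and Serpinb9 were scarce. Because genes differ in length, members were ranked by CPM per kb of exon. Serpinb5 averaged 704 ± 55.7 CPM per kb in IFE (SD, n = 4), 379.7 ± 51.9 in ORS and 449.9 ± 74.7 in HFSC. It made up 70.1% to 90.3% of the summed CPM per kb of the members in a library. Serpinb6a held 4.9% to 9.53% of that sum, Serpinb8 0.852% to 14.5% and Serpinb2 0.00737% to 8.02%. Second place went to Serpinb6a in ORS (36.1 ± 3.92 CPM per kb, n = 4) and to Serpinb8 in HFSC (75.9 ± 4.84), and in IFE Serpinb6a (51 ± 9) and Serpinb2 (38.2 ± 22.5) did not differ beyond their spread. Serpinb3a, Serpinb3b and Serpinb9 reached at most 0.827%, 0.874% and 0.467% of it.

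**Figure D2:**
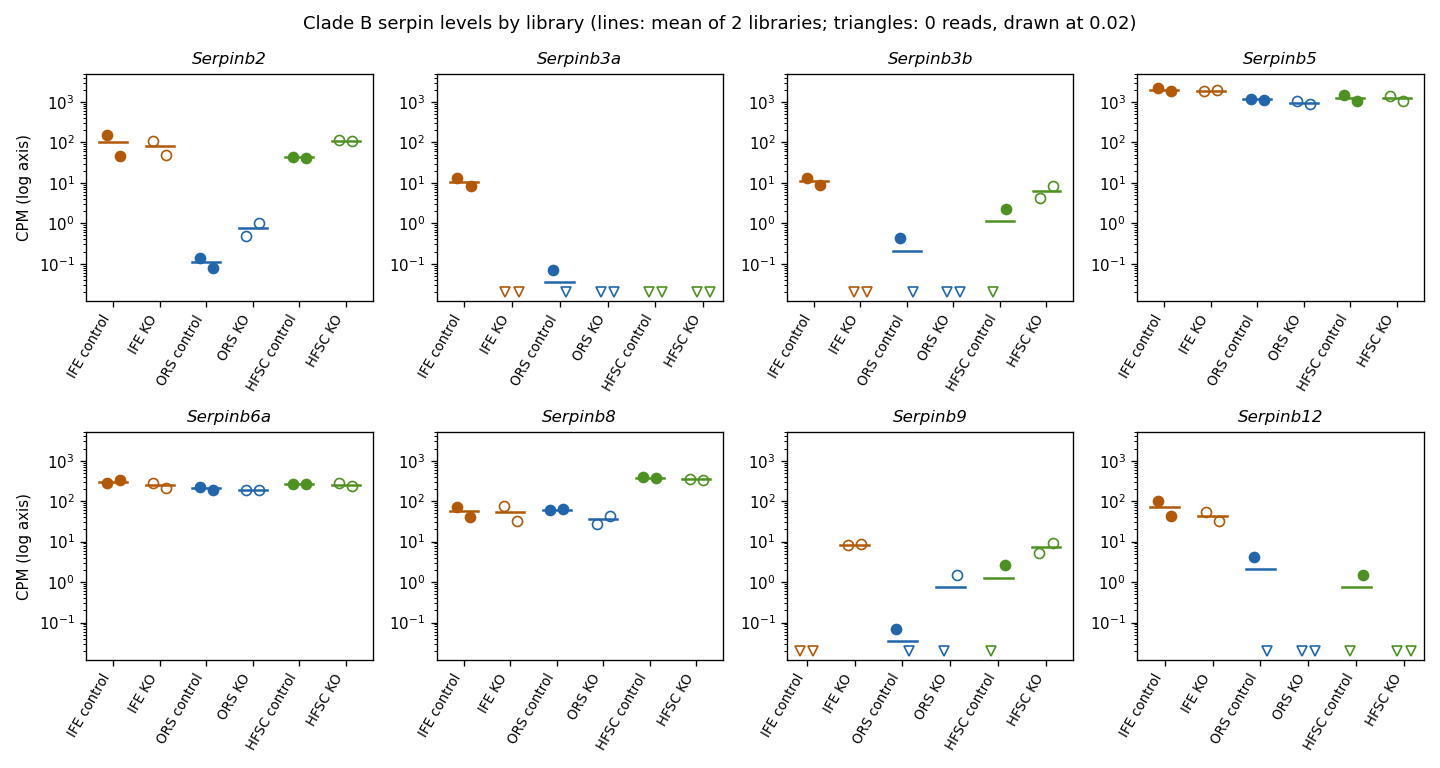
CPM (vertical axis, log scale) of each member in the 12 libraries, by group (horizontal axis; filled points control, open points knockout, lines the mean of 2 libraries, triangles libraries with 0 reads drawn at 0.02). Serpinb5 is highest in IFE, Serpinb2 is lowest in ORS, Serpinb12 is near 0 outside IFE, and Serpinb8 is highest in HFSC.

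Differences that passed the test lay between compartments, led by Serpinb2, Serpinb12, Serpinb8 and Serpinb5. In bulk RNA, fewer cells of a type and less RNA per cell cannot be told apart. Of 8 members tested in ORS against IFE over both genotypes, 5 were called lower in ORS and 0 higher (limma adjusted p under 0.05). It was 3 when any 1 library other than IFE knockout E359 was left out, and 3 by limma-voom. Among the 5, Serpinb3a and Serpinb3b passed the filter only through the IFE controls, where they are high. Over all 14449 genes tested, 7.51% were called lower and 8.26% higher. The median log2 fold change of the members was -1.79, and that of all genes 0.11. In HFSC against IFE 3 members were called lower, where the background was 16.1%, and 1 higher, where it was 20.0%. The 3 include Serpinb3a, which passed the filter only through the IFE controls. In HFSC against ORS 5 members were called higher against a background of 14.6%, and 0 lower against 13.9%. The 5 became 2 without ORS control E344, HFSC control L94 or HFSC knockout L97, and 3 without ORS control E341, ORS knockout E358 or HFSC knockout L95. With control libraries only it was 2. The compartments also differ in sex balance and, for HFSC, in title codes and in the deleted allele of the knockouts. The summed level of 6 melanocyte markers was 203 to 308 CPM in HFSC, 71 to 75.9 in ORS and 14.4 to 29.6 in IFE. That of 6 fibroblast markers was 178 to 301 CPM in the IFE libraries, above the ORS libraries at 75.6 to 121 CPM and the HFSC libraries at 30.4 to 83.5 CPM. Single fibroblast markers disagreed with each other. Against IFE, Dcn was called lower and Col1a1 higher, both in ORS and in HFSC (limma adjusted p under 0.05). Reads in genes were 50.6% to 54.6% of the library total in ORS and 26.9% to 29.6% in the other compartments. The part of these in the differences was not tested. On the log2(CPM + 0.5) scale used for the tests, fold changes of low genes are understated.

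Serpinb2, also called plasminogen activator inhibitor type PAI-2, blocks urokinase and is a keratinocyte stress and differentiation gene. It was nearly absent from ORS cells. Its level was 154 CPM in IFE control E341, 45.6 in IFE control E360, 111 in IFE knockout E358 and 47.9 in IFE knockout E359. ORS libraries held 4 and 2 reads in the controls (0.141 and 0.0765 CPM) and 13 and 28 reads in the knockouts (0.478 and 1.04 CPM). HFSC libraries held 41.5 and 44 CPM in the controls and 112 and 105 CPM in the knockouts. All IFE and HFSC libraries lay above all ORS libraries. The mean was 206-fold higher in IFE than in ORS and 174-fold higher in HFSC than in ORS. On the log2(CPM + 0.5) scale ORS was lower than IFE by a log2 fold change of -6.52 (SE 0.603, limma adjusted p = 6.9e-05), and HFSC was higher than ORS by 6.31 (SE 0.45, adjusted p = 2.21e-06). HFSC and IFE overlapped, with a log2 difference of -0.20 and a 95% interval from -1.18 to 0.78.

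Serpinb12, an inhibitor of trypsin-like proteases found in many epithelia, was largely an IFE transcript. It stood at 103 and 44 CPM in the IFE controls E341 and E360, and at 52.6 and 32.4 CPM in the IFE knockouts E358 and E359. In ORS it had 118 reads in control E341 (4.16 CPM) and 0 reads in the other 3 libraries, and in HFSC it had 23 reads in control L94 (1.52 CPM) and 0 reads in the other 3. All IFE libraries lay above all others. The log2 fold change was -5.95 in ORS against IFE (SE 0.755, limma adjusted p = 0.000508) and -6.23 in HFSC against IFE (SE 0.755, adjusted p = 5.44e-05). The first value was -6.74 without ORS control E341 and -5.14 without ORS control E344, and it stayed called. Between HFSC and ORS the 95% interval ran from -1.95 to 1.35.

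Serpinb5, known as maspin, does not inhibit proteases and is studied as a suppressor of epithelial tumours. IFE libraries held 2146 and 1835 CPM in the controls E341 and E360 and 1811 and 1952 in the knockouts E358 and E359. ORS libraries held 1207 and 1084 CPM in the controls and 1023 and 863 in the knockouts, and HFSC libraries 1048 and 1445 in the controls L94 and L136 and 1383 and 1074 in the knockouts L95 and L97. Every IFE library was above every ORS and HFSC library, while ORS and HFSC overlapped. The mean level was 1.85-fold higher in IFE than in ORS and 1.56-fold higher than in HFSC. The log2 fold changes were -0.90 in ORS (SE 0.109, limma adjusted p = 0.000367) and -0.66 in HFSC (SE 0.128, adjusted p = 0.00171), both against IFE. On the deposited scale the ORS value was 0.09, since the median of all genes moved from 0.11 to 1.11 there. Relative to that median it was -1.01 on the TMM scale and -1.02 on the deposited scale.

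Serpinb8, an intracellular inhibitor of furin, stood out in the follicle stem cell libraries. It was at 366 and 394 CPM in HFSC controls L94 and L136 and at a mean of 348 ± 14.2 CPM in HFSC knockouts (SD, n = 2), with 5833 reads in L95 and 5395 in L97. IFE libraries ranged from 32.3 to 76.4 CPM and ORS libraries from 28 to 64.5 CPM, so both overlapped with each other and lay below all HFSC libraries. The mean was 6.57-fold higher in HFSC than in IFE and 7.45-fold higher than in ORS. The log2 fold change was 2.79 over IFE (SE 0.275, limma adjusted p = 1.22e-05) and 2.95 over ORS (SE 0.275, adjusted p = 1.33e-05). ORS and IFE differed by -0.17 with a 95% interval from -0.92 to 0.58. The level of furin itself, Furin, averaged 50.2 CPM in HFSC controls, 56.3 in IFE controls and 68.6 in ORS controls, and it was called in 0 of the 3 compartment comparisons.

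Serpinb6a, a broadly expressed inhibitor that can bind cathepsin G, was the most even of the 8. IFE libraries held 282 and 327 CPM in the controls and 285 and 209.7 in the knockouts, ORS libraries 227 and 186 in the controls and 184 and 185 in the knockouts, and HFSC libraries 264 and 262 in the controls and 277 and 237 in the knockouts. HFSC libraries all lay above ORS libraries, by a log2 fold change of 0.41 (SE 0.144, limma adjusted p = 0.0485). That call was lost when any of 10 of the 12 libraries was left out (adjusted p up to 0.165), the exceptions being IFE knockout E358 and E359. On the deposited scale the value was -0.59, against a median of -0.91 over all genes, so relative to the median it was 0.36 on the TMM scale and 0.32 on the deposited scale. ORS against IFE gave -0.49 (SE 0.162, adjusted p = 0.0672) on the TMM scale and 0.50 (adjusted p = 0.032) on the deposited scale, and -0.60 and -0.61 relative to those medians.

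Serpinb3a and Serpinb3b are mouse counterparts of the human squamous cell carcinoma antigens, inhibitors of lysosomal cysteine proteases and chymotrypsin-like enzymes that rise in inflamed skin. In IFE both were read in the controls alone. Serpinb3a had 155 reads in IFE control E341 and 91 in E360 (13.1 and 8.17 CPM) and 0 in both knockouts, and Serpinb3b had 159 and 101 reads (13.4 and 9.06 CPM) and 0 in both knockouts. Elsewhere the copies parted. Serpinb3a had 2 reads in ORS control E341 and 0 in the other 3 ORS and all 4 HFSC libraries. Serpinb3b had 12 reads in ORS control E341 and 0 in the other 3 ORS libraries, but in HFSC it had 34 reads in control L94, 0 in control L136, 68 in knockout L95 and 131 in knockout L97. HFSC libraries therefore held reads assigned to Serpinb3b and none assigned to Serpinb3a.

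Over both genotypes, ORS against IFE gave -2.17 for Serpinb3a (SE 0.571, limma adjusted p = 0.0275) and -2.04 for Serpinb3b (SE 0.588, adjusted p = 0.0398). In the knockout libraries, where IFE and ORS were all at 0 reads, the log2 fold change was 0 for both, a comparison added after seeing the data. The Serpinb3b call was lost without any single one of the 8 libraries (adjusted p 0.0588 to 0.187). In this fit both copies passed the filter on low values through the IFE controls alone, where they are high. Their calls are therefore given as a description. Serpinb3a could not be tested without either IFE control. Its call was also lost without ORS control E341, ORS control E344, IFE knockout E358, ORS knockout E358 or ORS knockout E359 (adjusted p up to 0.128). With the reads of both copies summed, the value was -2.48 (SE 0.603, adjusted p = 0.0195), and the filter was again passed through the IFE controls alone. HFSC against IFE gave -2.22 for Serpinb3a (SE 0.426, adjusted p = 0.00156), which again could not be tested without either IFE control and was 0 in the knockout libraries, and 0.19 for Serpinb3b (95% interval from -1.14 to 1.52). For Serpinb3b the control libraries gave -3.30 (adjusted p = 0.0165) and the knockout libraries 3.67 (adjusted p = 0.00889, added after seeing the data) in the same comparison. HFSC against ORS gave 2.23 for Serpinb3b (SE 0.609, adjusted p = 0.0166), a call lost without ORS control E344, HFSC control L94 or HFSC knockout L97 (adjusted p 0.0677, 0.073 and 0.0627). Its value was 1.62 without HFSC control L94 and 2.85 without HFSC control L136.

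Serpinb9 is the inhibitor of granzyme B, best known for shielding cytotoxic lymphocytes and their neighbours. It had 0 reads in both IFE controls and 101 and 110 reads in IFE knockouts E358 and E359 (8.06 and 8.73 CPM). In ORS it had 2 reads in control E341, 0 in control E344, 0 in knockout E358 and 41 in knockout E359. In HFSC it had 39 reads in control L94, 0 in control L136, 87 in knockout L95 and 145 in knockout L97. HFSC was called above ORS by 2.05 (SE 0.671, limma adjusted p = 0.0383). The call was lost without ORS control E341, ORS control E344, ORS knockout E358, HFSC control L94, HFSC knockout L95 or HFSC knockout L97 (adjusted p up to 0.158). Without HFSC control L94 the value was 1.40, and without HFSC control L136 it was 2.71. ORS against IFE (-1.53, adjusted p = 0.142) and HFSC against IFE (0.53, adjusted p = 0.573) were not called. Gzmb, the gene of granzyme B, had 0 reads in all 12 libraries, as did Ptprc. Cd74, a gene of antigen-presenting cells, was called higher in HFSC than in ORS (4.69, SE 0.693, limma adjusted p = 0.000338). The summed level of the 12 leukocyte markers was 35.2 to 71.7 CPM in HFSC and 12.6 to 21.1 CPM in ORS, with 4 of the 12 at 0 in every library. Their part in the Serpinb9 difference was not tested.

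**Figure D3:**
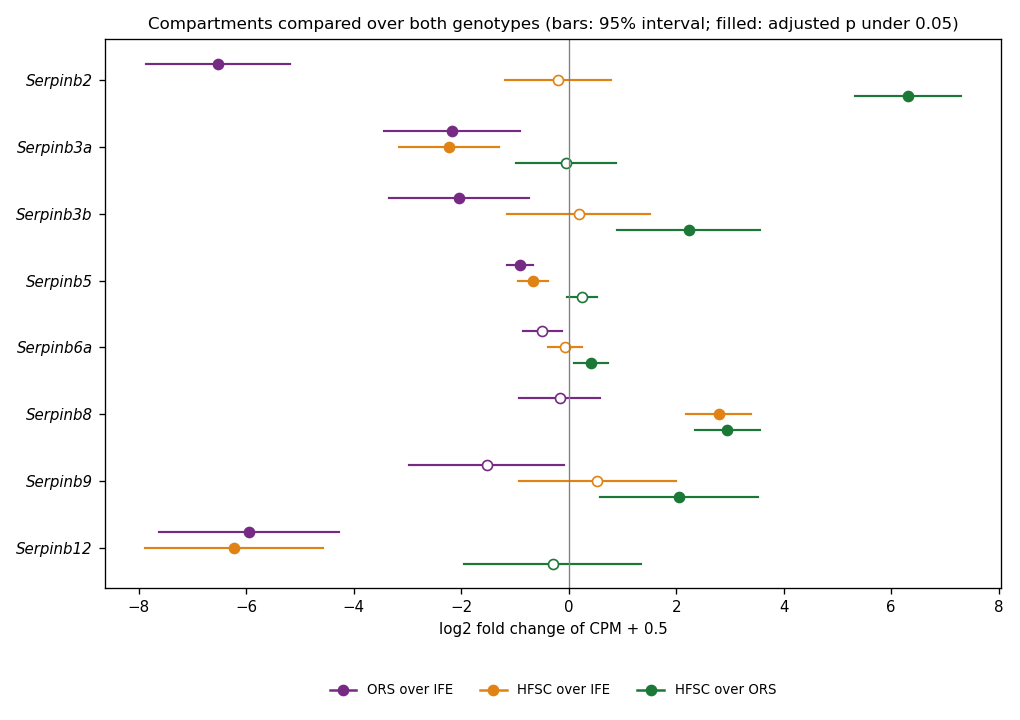
Log2 fold change of CPM + 0.5 (horizontal axis) for each member (vertical axis) between compartments over both genotypes; points are limma estimates, bars 95% intervals, and filled points have an adjusted p under 0.05. Serpinb2 and Serpinb12 show the largest differences, and Serpinb8 is higher in HFSC than in both other compartments.

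Against the control libraries, no member was called in the knockouts of any compartment. In IFE 0 of 8 members were called, and 0.00% of all 14449 genes tested, Egfr included (adjusted p = 0.0805). By limma-voom the count was also 0. At an unadjusted p under 0.05 there were 3 members, Serpinb3a, Serpinb3b and Serpinb9, beside 7.58% of all genes. Serpinb3a and Serpinb3b passed the filter only through the IFE controls, where they are high, so their part in that count is a description. In ORS 0 of 8 members were called by either tool, beside 0.00% of all genes, and 0 had an unadjusted p under 0.05, where the share of all genes was 3.39%. In HFSC 0 of the 6 members tested were called by either tool, beside 0.0363% of 13778 genes. Serpinb3a and Serpinb12 did not pass the filter there. Serpinb2, Serpinb3b and Serpinb9 had an unadjusted p under 0.05 in HFSC, beside 7.59% of all genes.

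In IFE the knockout libraries parted from the controls in the scarce members. Serpinb9 lay above the controls without overlap, as did 13.3% of all genes, and Serpinb3a and Serpinb3b lay below, as did 17.4%. Serpinb3a and Serpinb3b, at the reads given above, were at least 44.5-fold and 47.1-fold lower in the knockouts when 3 reads per library are set for 0. Serpinb9 was at least 32.1-fold higher by the same floor. The fitted log2 fold changes were -4.44 for Serpinb3a (SE 0.807, limma adjusted p = 0.209), -4.53 for Serpinb3b (SE 0.831, adjusted p = 0.209) and 4.18 for Serpinb9 (SE 0.922, adjusted p = 0.324). In the fit of all 12 libraries Serpinb3a was called (-4.44, adjusted p = 0.0153), and no other member. It passed the filter on low values only through the 2 IFE controls, where it is high, so the call is given as a description. Of all genes tested in IFE, 7 (0.0484%) had 0 reads in both knockouts and at least 5 CPM in both controls, and 14 (0.0969%) the reverse, a rule set after seeing the data. Serpinb3a and Serpinb3b are among the 7 and Serpinb9 among the 14. The rule was set with their values known, so these shares are a description and not a test. Both IFE controls were male and both knockouts female, and Cd74, a gene of antigen-presenting cells, was at 1.94 and 8.08 CPM in the controls and 0.16 and 0.0794 CPM in the knockouts. Of 12 differentiation markers, 4 lay lower in the knockouts without overlap. Among them Flg (filaggrin) was at 18.1 and 96.8 CPM in controls and 0 and 3.59 in knockouts, Lor (loricrin) at 5.29 and 28.7 against 0.873 and 2.55, and Casp14 at 58.7 and 73.3 against 13.8 and 34.6. The sum of the 12 overlapped, at 7087 to 9144 CPM in controls and 6398 to 8151 in knockouts. Of 8 genes of stressed keratinocytes, Krt6a (16.9 and 44.3 CPM against 1.76 and 8.18), Krt6b (4.48 and 10.3 against 0.16 and 0.476) and S100a9 (1.44 and 3.05 against 0) lay lower in the knockouts. Krt17 lay higher, at 2005 and 3149 CPM in controls and 3621 and 4867 in knockouts. It made up most of the sum of the 8, which therefore also lay higher, at 2144 to 3231 against 3671 to 4989. The part of sex or of any of these genes in the member values was not tested. The summed level of the 12 leukocyte markers overlapped, at 11.7 to 33.9 CPM in controls and 16.8 to 24.5 CPM in knockouts, with 8 of the 12 at 0 in each group.

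For the abundant members no difference was called in IFE. The 95% interval of the log2 fold change ran from -0.39 to 0.29 for Serpinb5, from -0.79 to 0.22 for Serpinb6a and from -1.17 to 0.96 for Serpinb8. Serpinb2 gave -0.17 with an interval from -2.07 to 1.72, and Serpinb12 gave -0.67 with an interval from -3.04 to 1.69. Their controls disagreed, since IFE control E341 held 154 CPM of Serpinb2 and 103 of Serpinb12 while E360 held 45.6 and 44. E341 also held more Krt1 (1708 against 702 CPM) and Krt10 (1413 against 652 CPM) than E360. Without E341 the Serpinb2 value was 0.68, and the part of differentiated cells in it was not tested.

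In ORS the libraries of Serpinb2, Serpinb5, Serpinb6a and Serpinb8 did not overlap between genotypes. Serpinb2 was above the controls in the knockouts, a state shared by 14.4% of all genes tested, and the other 3 were below, which 17.1% of all genes were. The knockout mean of Serpinb8 was 35.7 ± 11 CPM against 62 ± 3.62 CPM in controls (SD, n = 2 each), with a log2 fold change of -0.80 (SE 0.48, limma adjusted p = 1). Serpinb5 gave -0.27 (SE 0.154), Serpinb6a -0.14 (SE 0.229) and Serpinb2 1.03 (SE 0.853), each with an adjusted p of 1. Serpinb12 and Serpinb3b were read in control E341, the only male ORS library, and in no other ORS library. ORS knockout E359, the only one with Serpinb9 reads above 2, also retained 54.6 CPM of Egfr. Of 12 differentiation markers, 5 lay below the controls without overlap in the ORS knockouts, among them Krt1 and Sbsn, and 1 above, Casp14. Of 8 genes of stressed keratinocytes, 4 lay below and 0 above. The part of sex or of these genes in the member values was not tested.

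HFSC knockout libraries held more Serpinb2 than their controls. The mean was 108 ± 4.76 CPM in knockouts and 42.7 ± 1.79 CPM in controls (SD, n = 2 each), which is 2.53-fold. The log2 fold change was 1.34 (SE 0.216, unadjusted p = 0.000363, limma adjusted p = 0.222). Its adjusted p lay between 0.128 and 1 over the alternative settings. Serpinb3b and Serpinb9 had means of 6.2 and 7.22 CPM in knockouts and 1.12 and 1.29 CPM in controls, with log2 fold changes of 2.44 (adjusted p = 0.63) and 2.59 (adjusted p = 0.6). Both rested on low reads, given above, with control L136 at 0 in each case. Knockouts lay above controls without overlap for these 3 members and below for Serpinb8, beside 19.2% and 18.6% of all genes. Serpinb5, Serpinb6a and Serpinb8 differed by -0.01, -0.03 and -0.12. The summed level of 8 genes of stressed keratinocytes, such as Krt6a and Krt16, was 3398 to 4212 CPM in HFSC controls and 5513 to 5547 CPM in knockouts, and the part of that difference in the Serpinb2 value was not tested. The HFSC knockouts were male, their controls female, and Egfr was still at 332 and 335 CPM.

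**Figure D4:**
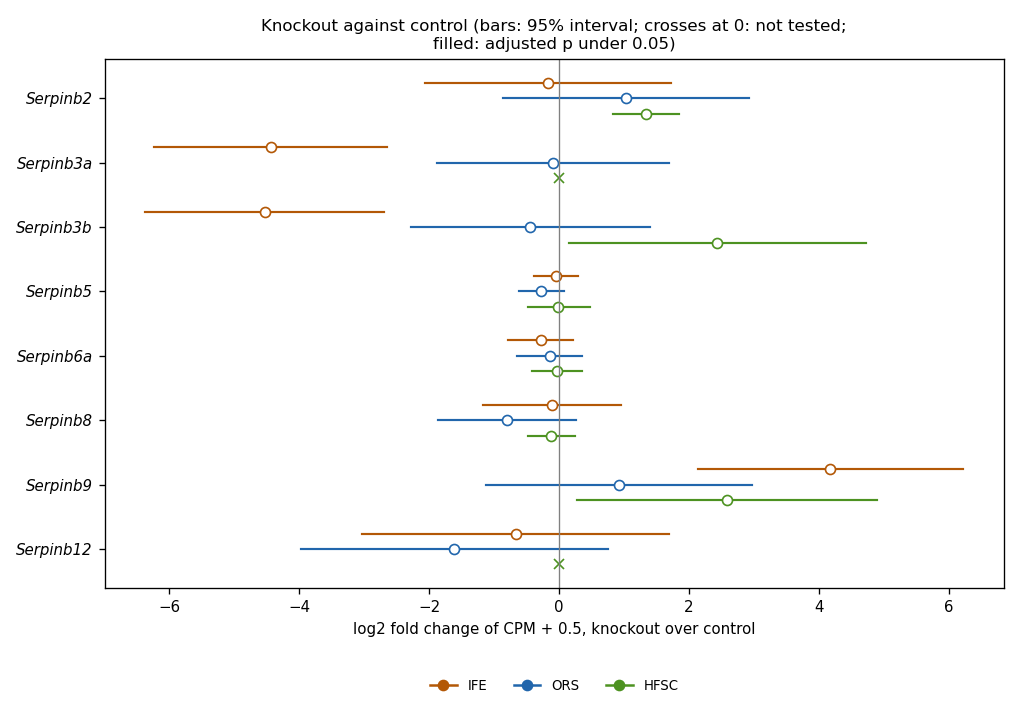
Log2 fold change of CPM + 0.5, knockout over control (horizontal axis), for each member (vertical axis) in IFE, ORS and HFSC; points are limma estimates, bars 95% intervals, and crosses mark members not tested. All points are open because no member had an adjusted p under 0.05, and the intervals that leave 0 are those of Serpinb3a, Serpinb3b and Serpinb9 in IFE and Serpinb2, Serpinb3b and Serpinb9 in HFSC.

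The difference between the ORS and the IFE knockout effect was tested directly, and 0 of 8 members were called, beside 0.00% of all genes. By limma-voom the count was 0 as well, and 3 members had an unadjusted p under 0.05, beside 4.75% of all genes. These were Serpinb3a (4.35, SE 1.14), Serpinb3b (4.09, SE 1.18) and Serpinb9 (-3.26, SE 1.3), each with a limma adjusted p of 0.999. The filter was passed by Serpinb3a and Serpinb3b only through the IFE controls, so their part in that count is a description. The HFSC effect was compared with the IFE effect in the fit of all 12 libraries, added after seeing the data. Again 0 of 8 members were called by limma, beside 0.00% of all genes, and 2 had an unadjusted p under 0.05, beside 7.29% of all genes. Serpinb3a was among these 2 and passed the filter of that fit only through the IFE controls. The largest difference was that of Serpinb3b (6.97, SE 1.22, adjusted p = 0.125). The HFSC effect minus the ORS effect also gave 0 calls by limma, beside 0.00% of all genes, and 1 member had an unadjusted p under 0.05, beside 4.46% of all genes.

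The sequence upstream of the members was searched because 4 of them, Serpinb2, Serpinb5, Serpinb8 and Serpinb12, carry compartment differences that stayed called with any 1 library left out. RefSeq promoters of GRCm38.p6 gave 11 start sites for the 8 members. In the 250 bases before each start, 11 motifs were searched on both strands. They were the AP-1 motif TGANTCA and the TATA box TATAAA, described next, and 9 others. KLF was searched as CCACACCC, and ETS as CCGGAAG. The GC box was searched as GGGCGG, and TEAD sites as CATTCC. For TCF/LEF the letters were CTTTGAN, and for CRE they were TGACGTCA. GATA sites were searched as AGATAA, and p53 sites and NF-kB sites by motifs with degenerate letters. Each of these 9 was found for at most 2 members, and TCF/LEF, CRE, p53 and NF-kB for none. The AP-1 motif, bound by Fos and Jun dimers, was found for Serpinb2, Serpinb5, Serpinb8 and Serpinb12 and for none of the other 4 members. By start site it was found for 5 of 11, where 6.75% of 32851 promoters hold it. Both Serpinb2 starts count the same site, which lies 94 and 181 bases before them. Among 16 other clade B genes with a promoter in the table, 2 had it, Serpinb7 and Serpinb11. The motif reads the same on both strands apart from its middle base. The matches began 94 bases before the first Serpinb2 start, 140 before Serpinb5, 23 before Serpinb8 and 45 before the first Serpinb12 start. The 150 bases before these starts are shown on the plus strand, with the motif in capitals, at chr1:107511273-107511422, chr1:106861025-106861174, chr1:107589856-107590005 and chr1:106934299-106934448.
Serpinb2: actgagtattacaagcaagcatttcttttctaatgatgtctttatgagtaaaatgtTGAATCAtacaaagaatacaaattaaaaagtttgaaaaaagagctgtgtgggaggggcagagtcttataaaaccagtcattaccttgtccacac
Serpinb5: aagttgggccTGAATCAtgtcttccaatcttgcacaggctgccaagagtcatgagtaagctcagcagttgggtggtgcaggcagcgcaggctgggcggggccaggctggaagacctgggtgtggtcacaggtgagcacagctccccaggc
Serpinb8: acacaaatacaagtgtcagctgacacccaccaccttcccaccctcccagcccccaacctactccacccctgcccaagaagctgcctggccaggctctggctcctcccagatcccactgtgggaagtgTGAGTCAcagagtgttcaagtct
Serpinb12: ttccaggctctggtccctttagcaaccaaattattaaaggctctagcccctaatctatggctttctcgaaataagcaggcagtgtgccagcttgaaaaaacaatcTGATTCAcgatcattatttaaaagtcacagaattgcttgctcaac
Of the 4 genes with the motif, Serpinb12 was highest in IFE and Serpinb8 in HFSC. A match is a description of the letters and not of binding. No allowance was made for the search of 11 motifs, and a part of the motif in the compartment differences was not tested. The TATA box was found upstream of Serpinb2, Serpinb3a, Serpinb3b and Serpinb12, by start site for 6 of 11, where 12.4% of all promoters hold it. Here too both Serpinb2 starts count the same site, 29 and 116 bases before them. The upstream sequences of Serpinb3a and Serpinb3b were 93.4% identical over 226 aligned bases.

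Neighbours in the chromosome 1 cluster differed in where they were read. The span from Serpinb5 to Serpinb8 holds 12 gene rows, of which 6 are members. Of the other 6, Serpinb3d had 0 reads in all libraries and 2 were called in a comparison. Serpinb7, an epidermal serpin mutated in a human palmoplantar keratoderma, is the row before Serpinb2 and was lower in ORS than in IFE by -6.16 (SE 0.743, limma adjusted p = 0.000367). Its mean was 75.6 CPM in IFE controls, 0.956 in ORS controls and 5.34 in HFSC controls. Serpinb11 was higher in HFSC than in IFE by 3.83 (SE 0.493, adjusted p = 8.42e-05), with a mean of 76.2 CPM in HFSC controls and 5.03 in IFE controls. Serpinb2 and Serpinb8 are adjacent rows, and the first was nearly absent from ORS while the second was at 28 to 64.5 CPM there. On chromosome 13, 11 other rows lie between Serpinb9 and Serpinb6a, 9 of them with 0 reads in all libraries. Of the remaining rows, Serpinb1b was lower in ORS than in IFE by -3.83 (adjusted p = 0.00575), and Serpinb6c was higher in HFSC than in ORS by 3.84 (adjusted p = 0.00812).

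**Figure D5:**
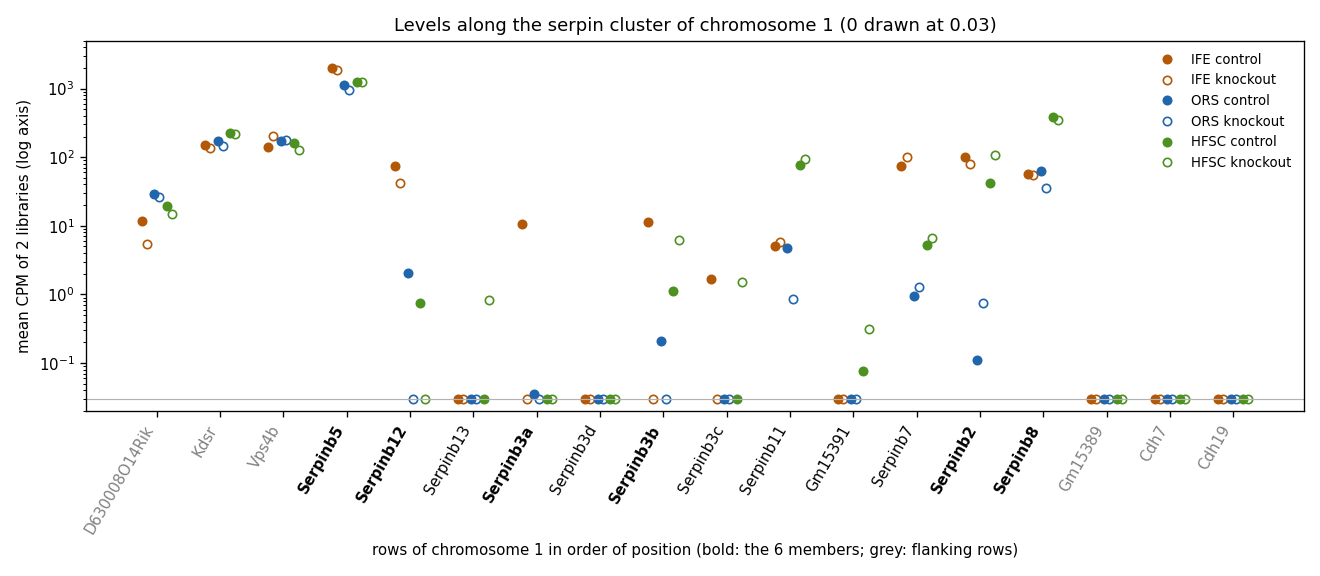
Mean CPM of 2 libraries (vertical axis, log scale, 0 drawn at 0.03) for the rows of the chromosome 1 cluster in order of position, with 3 flanking rows on each side (horizontal axis; bold names are members, grey names flanking rows; filled points control, open points knockout). IFE is highest for Serpinb12 and Serpinb7, HFSC for Serpinb11 and Serpinb8, and ORS is lowest for Serpinb2.

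The wider family was read from lists of genes of the same clade, of secreted serpins and of proteases. Of 18 other clade B genes in the files, 10 had 0 reads in all libraries. In ORS against IFE 6 of them were tested, 3 were called lower (Serpinb7, Serpinb1a and Serpinb1b) and 0 higher, with a median log2 fold change of -3.06. Serpinb1a, an inhibitor of neutrophil proteases, was higher in HFSC than in ORS by 4.42 (SE 0.329, limma adjusted p = 2.93e-06), as was Serpinb11 by 5.09 (adjusted p = 1.73e-05). Among secreted serpins, Serpinh1 and Serpina9 were called higher in ORS than in IFE and Serpine2 lower. Serpinh1, a collagen chaperone, was at a mean of 221 CPM in ORS controls and 85 in IFE controls. Serpina3g, Serpina3n, Serping1, Serpinf1 and Serpina9 were called higher in HFSC than in IFE. In the knockout comparisons 0 genes of either list were called by limma.

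Candidate target proteases were measured beside their inhibitors. Plau, which encodes urokinase, the target of Serpinb2, averaged 9.26 CPM in IFE controls, 2.86 in ORS controls and 5.61 in HFSC controls. It was lower in ORS than in IFE by -2.33 (SE 0.599, limma adjusted p = 0.0255) and higher in HFSC than in ORS by 2.02 (SE 0.506, adjusted p = 0.0103), the directions of Serpinb2 in the same comparisons. Plat, the tissue plasminogen activator and another target of Serpinb2, went the other way in ORS against IFE (3.99, SE 0.832, adjusted p = 0.00914) and was highest in HFSC, at a mean of 91.7 CPM in controls. Ctsl, a lysosomal cysteine protease of the type that Serpinb3 proteins bind, averaged 193 CPM in IFE controls, 213 in ORS controls and 151 in HFSC controls and was called in 0 comparisons. Ctsg, Gzmb, Elane and Cma1, granule proteases of immune cells, had 0 reads in all 12 libraries. Prtn3, another protease of that kind in the list, had reads in every IFE and HFSC control library. Of the 12 genes in the protease list, which includes the urokinase receptor gene Plaur, 0 were called in any knockout comparison.

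For each member the 2 genes with the most similar profile were named by Pearson correlation of log2(CPM + 0.5) over the 12 libraries, among 15250 other genes. The points share libraries, compartments and depth, so the values describe likeness only. Serpinb12 was closest to Krt1 (r = 0.98) and Ndufv3 (0.979), Serpinb2 to Sparc (0.974) and Jup (0.973), and Serpinb8 to Ctsd (0.982) and Sbsn (0.979). Sbsn averaged 2227 CPM in HFSC controls, 113 in IFE controls and 95.6 in ORS controls. Serpinb5 was closest to Ubxn1 (0.981) and Tppp3 (0.954), and Serpinb6a to Vti1b (0.923) and Exph5 (0.917). Serpinb3a was closest to Wnt2 and Armc3 (0.998 each), genes with reads in IFE controls and 0 reads in all other libraries. Serpinb3b was closest to Gpr34 and E130208F15Rik (0.886 each), and Serpinb9 to Ap2a2 (0.915) and Hipk4 (0.867). Among the members, the highest correlation was that of Serpinb5 with Serpinb12 (0.85), and Serpinb3a with Serpinb3b gave 0.68.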

How the data were processed

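RNA of sorted cells was sequenced in 12 libraries with paired reads of 150 bases. The deposited files give 1 log2 value per gene row, and per the labels no role of a tool is stated. Trim Galore, DESeq2 and mm10 appear in the submitters' processing notes. From the values, the authors' log2 scale is reads per 1e6 of a library total of 39.9 to 60.9 M, with a gene without reads set to 0.9 read. Whole reads were recovered for at least 99.99% of values within 0.2 reads. Aligner, annotation and strand setting: not given in the sources used here.

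Reads in genes were scaled by TMM (trimming 30% of ratios and 5% of levels) and tested with limma 3.58.1 (trend, robust, statmod 1.5.0, R 4.3.3) on log2(CPM + 0.5). A gene was tested if 2 or more libraries reached the equivalent of 10 reads at median depth and its total was 15 or more. IFE and ORS were fitted together (4 residual degrees of freedom), HFSC alone (2), and HFSC against the others in a fit of all 12 libraries (6). P-values were adjusted by Benjamini-Hochberg over all genes tested, with a threshold of 0.05. The fits were tested on simulated data. Alternatives were other pseudocounts, filters and scalings, the deposited values, limma-voom, the replicate block, 1 genotype alone and leaving out each library.

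Library pairs differed by more than sampling noise in all 6 groups. Members and lists were chosen with earlier results of these data known. The text names all 8 members, the genes of the other lists that were called or had the highest levels, and the 2 most similar profiles. One result of the secreted serpin list is not reported here. RefSeq promoters (GRCm38.p6) were matched by symbol for 8 of 8 members.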

Additional observations from a re-analysis of the deposited data

Results flagged for a closer look

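Serpinb3b is listed here because its knockouts lay below the controls without overlap in IFE and above them without overlap in HFSC. The log2 fold change in HFSC minus that in IFE was 6.97 (SE 1.22, unadjusted p = 9.83e-05, limma adjusted p = 0.125 over all genes). In IFE both controls held reads (159 and 101) and both knockouts 0, and in HFSC both knockouts (68 and 131) lay above both controls (34 and 0). Serpinb3c, whose row overlaps that of Serpinb3b, is 93.1% identical to it in coding sequence. It had reads in the same groups, 0 and 40 in the IFE controls and 0 and 49 in the HFSC knockouts. In the IFE knockouts, the HFSC controls and all ORS libraries Serpinb3c had 0 reads. The test of the difference was added after seeing the data, reuses the values that flagged the gene, and fails the correction. Sex changed with genotype in opposite directions in IFE and HFSC, the deleted alleles differ, and how reads matching more than 1 copy were assigned is not given in the sources used here. Their part in the difference was not tested.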

How the results depend on the processing

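Of the member log2 fold changes, 541 kept their direction and side of the threshold under the alternative settings, 22 lost and 3 gained a call, and 13 changed sign. With 1 library left out these counts were 406, 32, 1 and 21. The calls of Serpinb2, Serpinb8 and Serpinb12 between compartments held under every setting run. In ORS against IFE, 5 members were called, and 3 were called under a pseudocount of 0.1, a filter of 50 reads, limma-voom, the replicate block or knockout libraries only, with 3 to 5 when a library was left out. HFSC against ORS went from 5 called members to 3 with no filter, 2 with control libraries only and 3 with knockout libraries only, with 2 to 5 when a library was left out. The IFE knockout count went from 0 to 1 in the fit of all 12 libraries. Calls over all genes in ORS against IFE were higher in 52.4% of cases, in 93.4% on the deposited scale and in 62.1% without scaling, and in HFSC against ORS in 51.3%, 14.1% and 45.3%.

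Signs changed on the deposited scale in ORS against IFE for Serpinb5 (0.09), Serpinb6a (0.50) and Serpinb8 (0.82), and in HFSC against ORS for Serpinb5 (-0.77) and Serpinb6a (-0.59). That scale moves the median of all genes from 0.11 to 1.11 and from 0.05 to -0.91. Relative to the median, Serpinb5 in ORS against IFE was -1.01 on the TMM scale and -1.02 on the deposited scale, and Serpinb8 -0.28 and -0.29. With control libraries only, ORS against IFE gave 0.18 for Serpinb8 and 0.09 for Serpinb9, and HFSC against IFE gave -3.30 for Serpinb3b. With knockout libraries only, HFSC against IFE gave 0.57 for Serpinb2, 0.07 for Serpinb6a and -0.25 for Serpinb9. By limma-voom, HFSC against ORS gave 0.32 for Serpinb3a and 0.35 for Serpinb12. The cause of the sign changes outside the deposited scale was not tested.

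With 1 library left out, values that crossed 0 ranged as follows. The IFE knockout effect ran from -1.06 to 0.68 for Serpinb2, from -0.18 to 0.05 for Serpinb5 and from -0.72 to 0.48 for Serpinb8. The ORS effect of Serpinb9 ran from -0.09 to 1.93. The HFSC effect ran from -0.24 to 0.22 for Serpinb5 and from -0.15 to 0.08 for Serpinb6a. ORS against IFE ran from -0.47 to 0.13 for Serpinb8. HFSC against IFE ran from -0.64 to 0.24 for Serpinb2, from -0.18 to 0.04 for Serpinb6a, from -0.43 to 0.80 for Serpinb3b and from -0.12 to 1.19 for Serpinb9. HFSC against ORS ran from -1.09 to 0.50 for Serpinb12. The ORS minus IFE effect ran from -2.53 to 0.67 for Serpinb12 and from -0.06 to 0.36 for Serpinb6a.

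The title codes E341, E358 and E359 occur in both IFE and ORS. Same-coded libraries correlated by 0.05 each in their deviations from the group mean. With 2 libraries per group, E358 and E359 mirror each other and give the same check. E341 was set against partners of different codes, E360 in IFE and E344 in ORS. These values cannot settle whether same-coded libraries are paired. The block was not used for the main values and is given as an alternative. With the replicate block, ORS against IFE was -6.58 for Serpinb2, -5.77 for Serpinb12 and -0.95 for Serpinb5, all called, and the calls of Serpinb3a (-1.52, adjusted p = 0.409) and Serpinb3b (-1.30, adjusted p = 0.448) were lost.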
